A study of Homo sapiens with 2 samples.

Results

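The regions described here are the ETV4 ChIP-seq peaks with a fold enrichment over control of 100 or more. They were selected on that fold, which the authors' peak caller gave at each summit, and they numbered 507 of 54389 peaks (0.932%). Fold, p-value, q-value, fragment pileup and control level are therefore given below only as descriptions of how the peaks were chosen, and what is compared is their position, spacing, width and sequence. The peaks came from 1 anti-Flag immunoprecipitate of A549-shETV4 cells, an established human lung adenocarcinoma line in which ETV4 was knocked down by shRNA and a Flag-tagged ETV4 was supplied again by transfection. The control was 1 input library. The antibody recognises the tag of the transfected protein, no immunoprecipitate from cells without Flag-ETV4 was analysed here, and there was no replicate, so intervals are Wilson 95% confidence intervals that cover counting error only. The Flag antibody is a Sigma product in the sample labels and a CST product in the methods.

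ETV4 belongs to the PEA3 group of ETS transcription factors, which bind DNA through an ETS domain that recognises a GGAA core. PEA3 factors act downstream of receptor tyrosine kinases and ERK, and are known in epithelial branching, including that of the lung, and in tumour invasion. ETS sites occur both in promoters and in distal enhancers, often beside AP-1 sites.

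The DNA under the summits could be read where a summit fell into a RefSeq promoter window, from 250 bases before to 50 bases after a transcription start on GRCh38.p14. Of the 507 peaks, 19 had their summit in such a window, and 16 had 50 bases of it on both sides, a stretch of 101 bases. CCGGAA or AGGAAG, on either strand and with overlapping copies allowed, was present in 11 of the 16 (68.8%, interval 44.4% to 85.8%). Of all 2902 peaks with such a stretch 46.7% held one, a value inside that interval. Among the 507 peaks that follow by fold, 14 of 20 such stretches held one (70%). The 101 bases before the start held one in 21.1% of all 34943 promoter windows. The sequences below show the only stretch among the peaks ranked 11 to 30 by fold, at DPEP1, and, chosen after their values were seen, 3 further summits that lie outside gene bodies and hold a motif and 1 that holds none. Capitals mark copies of either motif or of its reverse complement, and each run reads 5′ to 3′ on the strand of the named start.
DPEP1, chr16:89616776-89616876, plus strand: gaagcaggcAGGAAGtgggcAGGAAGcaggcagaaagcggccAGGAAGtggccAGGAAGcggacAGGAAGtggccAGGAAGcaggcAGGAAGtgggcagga
INTS1, chr7:1504390-1504459, minus strand: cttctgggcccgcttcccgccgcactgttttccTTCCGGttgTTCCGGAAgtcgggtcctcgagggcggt
ZNF778-DT, chr16:89217654-89217702, minus strand: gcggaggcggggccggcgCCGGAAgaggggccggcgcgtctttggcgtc
LOC105376156, chr9:95426849-95426949, minus strand: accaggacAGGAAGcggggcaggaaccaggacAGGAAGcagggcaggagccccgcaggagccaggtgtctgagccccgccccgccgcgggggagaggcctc
PCYT1A, chr3:196287784-196287884, minus strand: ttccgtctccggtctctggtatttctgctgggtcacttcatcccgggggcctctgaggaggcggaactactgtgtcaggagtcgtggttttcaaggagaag

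The DPEP1 stretch was a repeat. It held 7 copies of AGGAAG on the plus strand, 5 of the 6 steps between them being 11 bases and the other 22 bases. DPEP1 encodes a membrane-bound dipeptidase, and the summit lay 59 bases before one of its RefSeq starts and 3.52 kb inside the gene. Its peak had a fold of 186, a pileup of 499 fragments and a width of 937 bp. Only 0.413% of the 2902 peaks had as many copies of GGAA as the 7 counted there.

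Upstream of INTS1, a subunit of the Integrator complex, the full stretch of 101 bases also held 7 copies of GGAA, of which the 70 bases shown hold 5. Its motif was of the other type, CCGGAA, with 4 copies in the 101 bases. The part shown holds the palindromic form TTCCGGAA, in which a site on each strand shares the CCGG, and a separate TTCCGG before it. The stretch at ZNF778-DT held a single CCGGAA in the part shown, and that at the uncharacterised LOC105376156 held 2 copies of AGGAAG spaced 24 bases apart. These starts were chosen for holding a motif, and both motifs contain GGAA, so the shared core was fixed by the choice. They differed in which longer motif they carried and in how often.

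The summit upstream of PCYT1A, the rate-controlling enzyme of phosphatidylcholine synthesis, had 2 copies of GGAA but neither longer motif. Its pileup was 529 fragments over a control level of 3.94, which gave a fold of 107, whereas INTS1 had 396 fragments and a fold of 131. Over the 16 stretches, CCGGAA was present in 6 (37.5%, interval 18.5% to 61.4%) and AGGAAG in 5 (31.2%, interval 14.2% to 55.6%), against 29.8% and 21.7% of all peaks. Among 20 such stretches of the 507 peaks next by fold, the shares were 60% (interval 38.7% to 78.1%) and 20% (interval 8.07% to 41.6%). The core GGAA was present in 15 of 16, against 95% of those 20 stretches and 81.8% of all peaks. MYL12B, a myosin regulatory light chain gene, was the exception among the 16 with 0 copies. No genome sequence was used here, so the 488 summits outside the promoter windows, nearly all of the group, were not searched.

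The strength of the group can be stated in fragments. Fold ran from 100.1 to 327 with a median of 122 (quartiles 109 to 143). The summit pileup ran from 228 to 1049 fragments with a median of 325, against a median of 26 over all peaks. Control levels were low throughout, at most 5.40, with a minimum of 1.28 and 1.52 in the middle of the distribution. At the lowest control level found in the list, 1.28, a pileup of 228 fragments was enough to reach the threshold, and 25.8% of the 507 peaks had that level against 29.0% of all peaks. The group was not the same as the peaks with the most fragments: 328 of the 507 (64.7%) were also among the 507 highest pileups, and 385 (75.9%) among the 507 highest −log10 q values.

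At the threshold, the last peaks inside were nearest to RIMS4, with a fold of 100.2 and 302 fragments, and to ZKSCAN1, with a fold of 100.1 and 380 fragments. The first outside were nearest to THRAP3 and ZIC1, each with a fold of 99.85 and 227 fragments. The exact Poisson 95% interval of the ZKSCAN1 pileup, 343 to 420 fragments, shows that counting error was far larger than the step in fold between these 4 peaks. The 507 peaks that follow by fold, from 99.85 down to 80.4, serve below as the nearest comparison.

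Most of the strongest peaks were not at gene ends. Of the 507 summits, 59 (11.6%, interval 9.13% to 14.7%) were no more than 1 kb from either end of some RefSeq gene, of whatever type, against 26.8% of all peaks and 19.1% (interval 15.9% to 22.8%) of the next 507. For protein-coding genes alone the count was 38 (7.50%, interval 5.51% to 10.1%), against 20.6% and 13.6%. The intervals of the group and of the next 507 did not overlap in either case. No test was run, since all peaks come from 1 library.

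The relation to fold was not monotonic over the whole list. The gene-end share, counted with the same 1 kb limit, rose from 18.5% of the 9795 peaks with a fold under 5 to 40.6% (interval 39.5% to 41.6%) of the 8710 peaks with a fold of 20 to 40. It then fell to 31.3% at 60 to 80, 18.9% at 80 to 100, 13.0% at 100 to 120 and 13.5% at 120 to 150. Among the 99 peaks with a fold of 150 or more it was 5.05%, or 5 peaks (interval 2.18% to 11.3%). The decline thus began well below the threshold, and the intervals of the 3 classes above it overlapped.

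**Figure D1:**
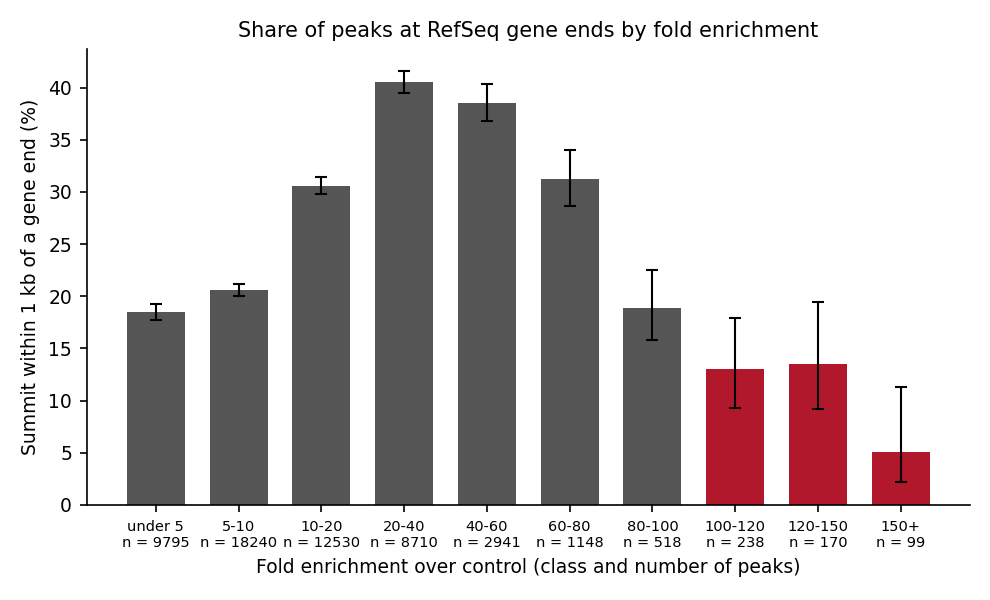
Share of peaks whose summit is at most 1 kb from a RefSeq gene end (y axis, percent) in 10 classes of fold enrichment (x axis, with the number of peaks). Bars give the share and lines the Wilson 95% interval; the 3 classes of the 507 peaks are red. The share peaks at 40.6% for folds of 20 to 40 and is 5.05% for folds of 150 or more.

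Control level moved with position. Among the 507 peaks, the median control level was 1.74 within 1 kb of a gene end and 1.51 farther away. The same medians over all peaks were 1.97 and 1.52, so a peak at a gene end needed more fragments to reach a given fold. When the 507 peaks with the highest pileup were taken in place of the highest fold, the share within 1 kb of a gene end was 24.3%, and it was 18.0% for the 507 highest −log10 q values. The low share of 11.6% thus depended on ranking by fold, and the part of the control level in it was not tested.

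The 5 peaks of a fold of 150 or more at a gene end lay at KRT10, a keratin of differentiating epidermis (fold 270), at the noncoding LINC00659 (236) and LOC124902038 (195), at the olfactory receptor pseudogene OR7H1P (162) and at SIGLEC15, a sialic acid-binding lectin (162). Only 2 of these are ends of protein-coding genes. Using the starts of the promoter table, which has none on chromosome 8, 43 of 476 summits (9.03%) lay within 1 kb of a start. The share was 15.2% for the next 507 and 21.3% for all peaks, also without chromosome 8. Of the 43 summits, 20 were upstream and 23 at or downstream of the start, against 4203 and 6851 over all peaks. The 43 had a median distance of 154 bp from the start, against 179 bp over all peaks.

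The 38 summits within 1 kb of a protein-coding gene end had varied neighbours. Genes of signalling were TRIB1, a pseudokinase, PIK3R1, the regulatory subunit of PI3-kinase, RAPGEF3, a cAMP-activated exchange factor, AKAP7, an anchor of protein kinase A, and ACVR2A, an activin receptor. The signalling summits had folds of 129, 115, 109, 123 and 104, in that order. Transcription factor genes were FOXP4, HOXB7, SCRT1, HDX, ZNF682, ZNF778 and ZNF562, with folds from 105 at HOXB7 to 145 at HDX. The HDX summit was 9 bp and the SCRT1 summit 12 bp from the gene end.

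RNA metabolism and the cytoskeleton were also represented. PAPOLA, a poly(A) polymerase, EIF4A2, an RNA helicase of translation initiation, and INTS1 had folds of 116, 106 and 131. MSN, which links actin to the membrane, MYL12B, EPB41L2 and KRT10 ranged from 105 to 270. SENP1, a SUMO protease, had a fold of 142 with its summit 44 bp from the end, and RNF168, a ubiquitin ligase of the DNA damage response, had 112 at 141 bp. Both of these summits were nearer to the gene end than 250 bp.

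The rest of the 38 lay at CLTC, the clathrin heavy chain gene, GOLPH3, a Golgi protein gene, GOLGA7B and SHISA5, at the channel genes ORAI2 and KCNK15, at SIGLEC15, CD79A, PEX11G, TMEM222, ASB1, GON7, PCYT1A, CCAR2, TNNI3, ACAD8 and ICA1. Their folds ran from 100.5 at ICA1 to 162 at SIGLEC15. The GOLGA7B summit, 2 bp from the end, was the closest of all.

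Over all 507 summits, those at gene ends included, the group sat at intermediate distance. The median distance to the nearest protein-coding gene end was 26.8 kb (quartiles 8.50 to 77.4), against 23.3 kb for the next 507 and 16.1 kb for all peaks. The class from 10 to 50 kb held 197 peaks (38.9%, interval 34.7% to 43.2%), against 31.8% of the next 507 (interval 27.9% to 35.9%) and 28.2% of all. Beyond 100 kb there were 101 peaks (19.9%), against 20.3% and 17.5%. The surplus over all peaks was thus largest between 10 and 50 kb. These shares are of all summits, so the lower share at gene ends by itself raises the shares of the other classes. The distance depended on the ranking, since the median was 15.7 kb for the 507 highest pileups, slightly below that of all peaks, and 19.8 kb for the 507 highest −log10 q values.

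**Figure D2:**
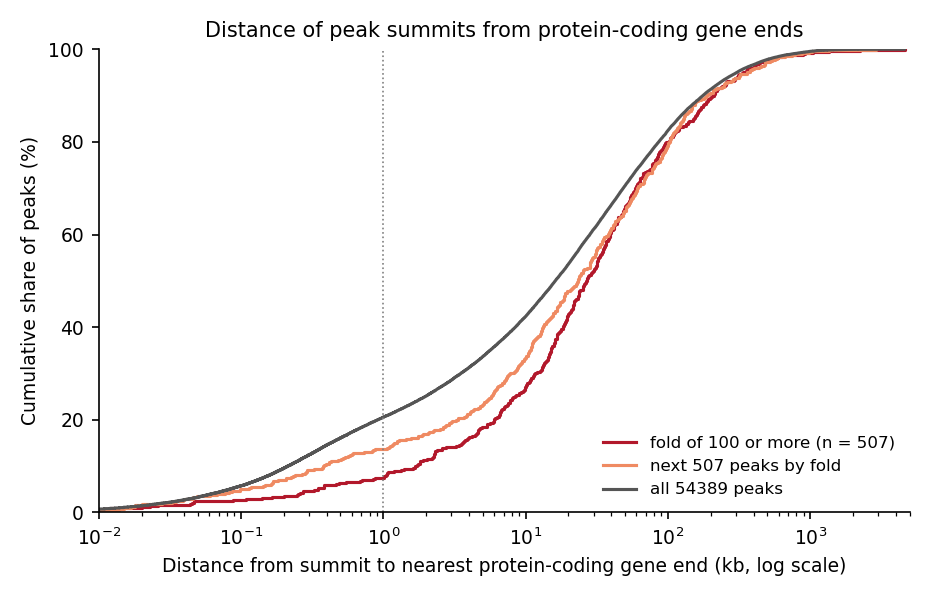
Cumulative share of peaks (y axis, percent) by distance from the summit to the nearest protein-coding gene end (x axis, kb, log scale), for the 507 peaks, the next 507 by fold and all 54389. The dotted line marks 1 kb, where the 3 curves stand at 7.50%, 13.6% and 20.6%, and their medians are 26.8, 23.3 and 16.1 kb.

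Slightly fewer summits lay inside genes than over the whole list. Of the 507, 300 (59.2%, interval 54.8% to 63.4%) were inside a RefSeq gene, against 64.1% of all peaks and 57.6% of the next 507. Protein-coding genes held 228 (45.0%, against 51.7% of all) and genes of another type alone held 72 (14.2%, against 12.4%). Outside all genes lay 207 (40.8%, interval 36.6% to 45.2%, against 35.9%), of which 113 were over 10 kb from any gene end. With the 507 peaks ranked by −log10 q or by pileup the share inside a gene was 63.5% (interval 59.2% to 67.6%), which includes the value of all peaks, so the difference was found only for the ranking by fold.

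The protein-coding genes that held a summit were long, with a median length of 133 kb against 86.8 kb over all peaks and 136 kb for the next 507. For 184 summits whose host gene has a known strand, the median position was 37.3% of the way from the 5′ end (quartiles 15.9% to 65.4%), against 30.1% over all peaks. The gaps between flanking protein-coding genes that held the other summits had a median of 162 kb, against 158 kb. Host length differed from the whole list, and gap length hardly did.

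The peaks ranked 11 to 30 show this pattern gene by gene. Those inside a protein-coding gene were at ACTA2, smooth muscle actin, where the summit also lies in FAS (fold 212), SH3PXD2B, an adaptor of podosomes (208), CLIC6 (205), PTPRK, a receptor tyrosine phosphatase (195), EXOSC4, an RNA exosome subunit (195), ADCY1, an adenylyl cyclase (189), TRHDE (186), DPEP1 (186), NWD1 (186) and SPINK13, a peptidase inhibitor (185). The TRHDE summit was the deepest, 290 kb from the nearer end of its gene, and had no other peak within 50 kb. That at SPINK13 was 2.01 kb from the nearer end.

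Outside protein-coding genes, the distances in these ranks ran from 3.63 kb to 168 kb. The nearest end belonged to NKX2-5, a cardiac homeobox gene, at 3.63 kb (fold 195), RSPH3, a ciliary radial spoke gene, at 9.95 kb (184), PDCD5 at 10.3 kb (206), STX2, a syntaxin, at 35.0 kb (202), ADCY1 at 67.9 kb (188), TRIB1 at 83.3 kb (215), SGK1, a serum- and glucocorticoid-induced kinase, at 84.7 kb (206), UACA at 120 kb (205), COL22A1, a collagen gene, at 133 kb (206) and ZNF507 at 168 kb (196). None of the 20 peaks of these ranks was within 1 kb of a protein-coding gene end. ADCY1 was named by 2 of them, 1 inside the gene and 1 outside, 179 kb apart.

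Some loci were far from any protein-coding gene end, though not always from genes of other types. The 3 largest distances to a protein-coding gene end were 4600 kb, at chr22:10927794-10928823 with OR11H1 as the nearest, 2244 kb, at chr20:28569151-28570163 with LOC124904970, and 1359 kb, at chr5:106017346-106018045 with EFNA5, an ephrin gene. The first and the second were each nearest to a transcribed pseudogene copy of FRG1, at 12.4 kb from FRG1FP and 11.04 kb from FRG1CP. Their folds were 116 and 103 and their widths 1030 and 1013 bp.

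A further 2 peaks with folds of 80 or more, 88.6 and 81.9, had the copies FRG1GP and FRG1BP as their nearest gene. This locus family was picked after its values were seen. RefSeq names 9 such pseudogene copies. The 4 summits lay 6.62 to 12.4 kb from the copies, not in them. Whether reads under these peaks can also be placed elsewhere was not examined, so the level at each is uncertain.

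The 507 peaks were unevenly spread over chromosomes. Their share of a chromosome's peaks was highest on chromosome 19, with 43 of 2578 (1.67%, interval 1.24% to 2.24%), then on chromosome 7 with 41 (1.48%, interval 1.09% to 1.997%) and chromosome 6 with 44 (1.32%, interval 0.986% to 1.77%). It was lowest on chromosome 13, with 2 of 965 (0.207%, interval 0.0569% to 0.753%), chromosome 15 with 6 (0.357%) and chromosome 22 with 4 (0.380%). The intervals of chromosomes 19, 7 and 6 lay above the share of 0.932% over all chromosomes, and those of chromosomes 11, 13 and 15 below it. DNA copy number of this line was not analysed here, and its part in these shares was not tested.

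**Figure D3:**
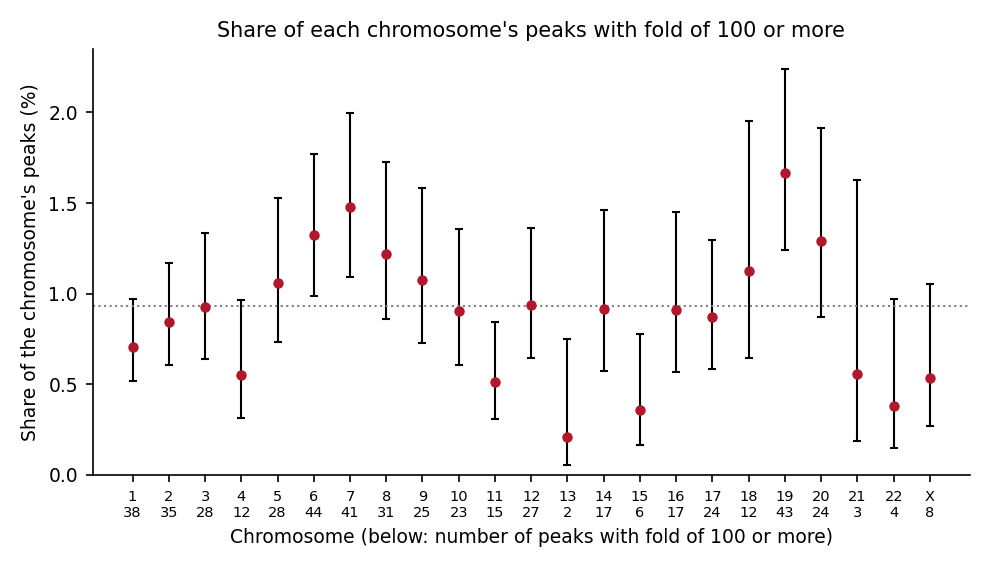
Peaks with a fold of 100 or more as a share of all peaks of each chromosome (y axis, percent), with the number of such peaks printed under each chromosome on the x axis. Points give the share, lines the Wilson 95% interval and the dotted line the share over all chromosomes, 0.932%; chromosome 19 is highest at 1.67% and chromosome 13 lowest at 0.207%.

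Zinc finger genes are clustered on chromosome 19. Of the 38 gene-end summits 3 were at such genes, ZNF682 and ZNF562 on that chromosome and ZNF778 on chromosome 16. Over all distances, 11 of 566 genes with the symbols ZNF, ZFP, ZKSCAN or ZSCAN were nearest to or held a peak of the group, or 1.94% (interval 1.09% to 3.45%), which is close to the 2.41% over all 20033 protein-coding genes, or 482 genes. ZNF507 alone was nearest to 3 peaks, with folds of 196, 148 and 125, the second of them inside the gene.

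The peaks were wide and their summits central. Width ran from 626 to 4883 bp with a median of 947 bp (quartiles 804 to 1187), against 870 bp for the next 507 and 519 bp over all peaks. A width of 2 kb or more was found for 27 peaks (5.33%), against 2.74% of all. The summit lay in the central 20% of the interval for 326 peaks (64.3%, interval 60.04% to 68.4%), against 62.9% of the next 507 and 46.5% of all. Fold and width were only weakly related across the 507 peaks, with a Spearman correlation of 0.112, as a description over peaks of 1 library.

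Within the group, width differed with position. The median was 1094 bp for the 59 peaks within 1 kb of a gene end and 936 bp for the 448 others, a difference also present over all peaks, at 850 and 464 bp, but not among the peaks of a fold of 150 or more, where the 5 at gene ends had a median of 923 bp and the others 968 bp. Over all peaks, median width also rose with fold, from 300 bp at folds under 5 to 959 bp at folds of 40 to 60. Of the 27 peaks of 2 kb or more, 10 were at gene ends. Put the other way, 16.9% of the gene-end peaks were that wide and 3.79% of the others.

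**Figure D4:**
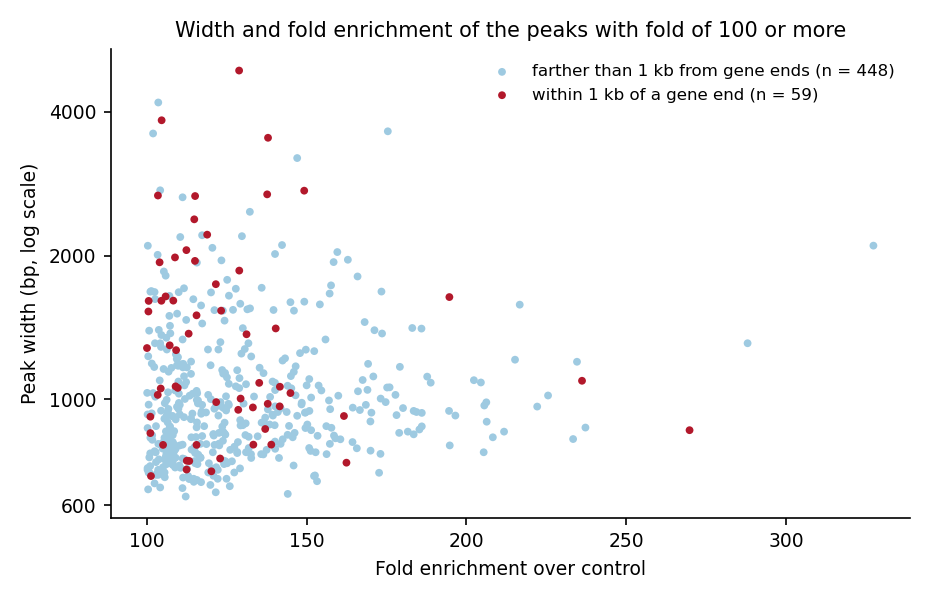
Width (y axis, bp, log scale) against fold enrichment (x axis) for each of the 507 peaks. Red points are the 59 peaks with the summit within 1 kb of a gene end and blue points the 448 others; the widest of the red points is 4883 bp, and few peaks above a fold of 200 exceed 2 kb.

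The widest peak, 4883 bp with a fold of 129, had its summit 0.768 kb outside the end of TRIB1, and its interval ran on into the gene. The next widest were at VGF, a neurosecretory protein precursor (4186 bp, fold 104), and HOXB7 (3842 bp, fold 105). The narrowest were 626 bp near LOC100996696 (fold 112), 634 bp near RIF1, whose summit lies in the muscle gene NEB (fold 144), and 639 bp in SND1 (fold 122). The folds of the wide peaks, 104 to 129, and of the narrow ones, 112 to 144, overlapped.

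The strongest peaks by fold usually had weaker peaks around them. Few had one another within 50 kb, though more than among the next 507. The median number of other peaks of any fold within 50 kb was 4 (quartiles 2 to 6), against 3 for the next 507 and for all peaks, and 36 of the 507 (7.1%, interval 5.17% to 9.67%) had none, against 14.2% (interval 11.4% to 17.5%) and 11.3%. Another peak of the group lay within 50 kb of 36 (7.1%) and within 1 Mb of 257 (50.7%), with a median distance to the nearest of 946 kb. Among the next 507 the same counts were 16 (3.16%, interval 1.95% to 5.06%) and 223 (44.0%). Peaks close to each other are counted together and are not independent, so this interval is too narrow and the 2 counts are given as a description. The share with another peak of the group within 50 kb was 15.0% for the 507 highest pileups, 10.9% for the 507 highest −log10 q values and 0% for the 99 peaks of a fold of 150 or more. The 36 formed 18 pairs and no run of 3 or more.

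The closest pair, 2.11 kb apart, lay near ANKRD9 with folds of 116 and 136. Within 2.31 kb of an end of HDAC7, a class IIa histone deacetylase gene, 2 summits 4.11 kb apart had nearly equal folds, 147 and 149, and pileups of 677 and 753 fragments. A pair 5.32 kb apart with folds of 111 and 160 lay outside all genes, 209 and 215 kb from the end of CBLB, a ubiquitin ligase gene. None of these 3 pairs had another peak between its members.

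Other pairs were less even. Near ZNF507 the folds were 196 and 125 over 11.5 kb, and at SH3PXD2B 148 and 208 over 22.6 kb. The widest-spaced pair, in INSR, the insulin receptor gene, spanned 44.1 kb with 5 further peaks between, the strongest of which had a fold of 59.6. In 3 pairs the nearest gene differed between members, as for GNGT2 and PHOSPHO1, whose summits were 24.2 kb apart with folds of 107 and 100.4.

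**Figure D5:**
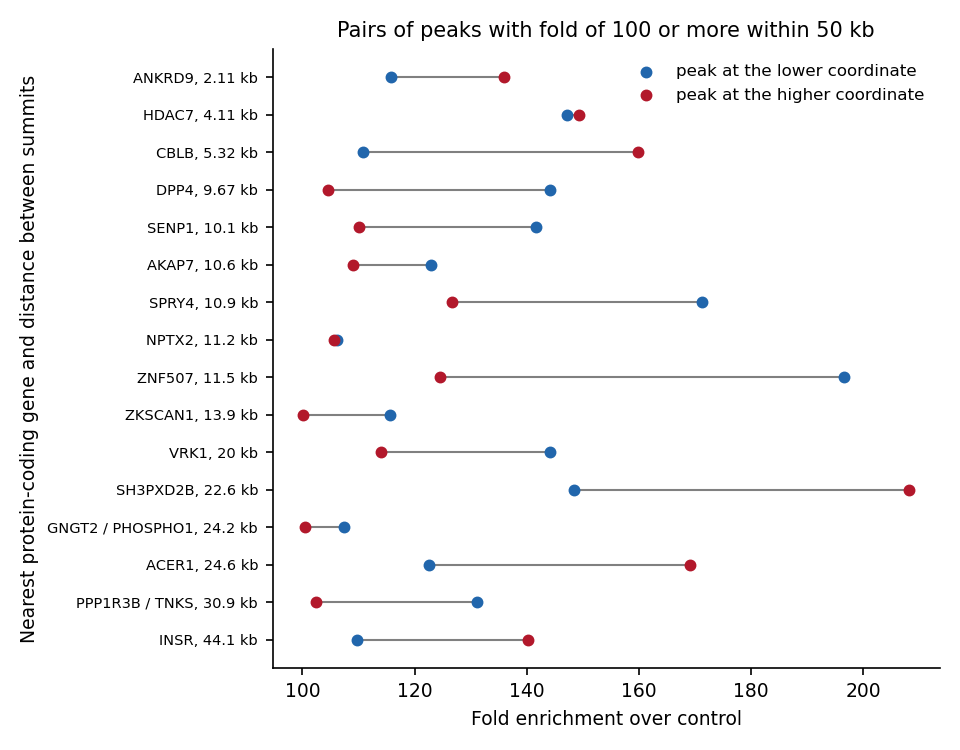
Fold enrichment (x axis) of the 2 peaks of 16 of the 18 pairs with summits within 50 kb. Rows name the nearest protein-coding gene or genes and the distance between the summits; blue is the peak at the lower coordinate and red the other. Folds are nearly equal at HDAC7 (147 and 149) and NPTX2 (106 for both) and far apart at ZNF507 (196 and 125).

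Some genes were met more than once. Of 466 protein-coding genes that were nearest to a summit, 34 were nearest to 2 or more and 6 to 3 or more. No matching count was made for other peaks, so these counts only describe the group. MYC, the oncogenic transcription factor, was nearest to 4, at 69.4, 256, 400 and 551 kb, with folds of 175, 110, 125 and 105. TRIB1, on the same arm of chromosome 8, was nearest to 3, at 0.768, 83.3 and 412 kb, with folds of 129, 215 and 101. Nearness does not assign a peak to a gene, and at these distances the nearest end is only a landmark.

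The other genes with 3 were JARID2, a Polycomb cofactor, ZEB2, a repressor known in epithelial-mesenchymal transition, NPTX2, a neuronal pentraxin, and ZNF507. At ZEB2 the summits were 22.1, 528 and 62.3 kb from the gene's nearer end, with folds of 167, 106 and 101, and the last lay inside the gene. At JARID2 the 3 summits lay 447, 134 and 60.8 kb away, all outside the gene, with folds of 163, 106 and 103. Distances at NPTX2 were shorter, from 32.3 to 53.8 kb.

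Protein-coding genes that held 2 summits each numbered 9 of the 221 that held any, again with no matching count for other peaks. They were ACER1, a ceramidase (folds 169 and 123), DPP4, a cell-surface peptidase (144 and 105), EXT1, a heparan sulfate polymerase (161 and 119), INSR (140 and 110), ITGAM, a leukocyte integrin (151 and 146), MYLK, myosin light chain kinase (158 and 134), NRG1, a ligand of ERBB receptors (175 and 112), PALM2AKAP2 (140 and 126) and PFKM, a phosphofructokinase (142 and 110). Most of these genes are long, from 41.1 kb for PFKM to 1135 kb for NRG1, and both PFKM summits also had SENP1 as the nearest gene end. For 17 of the 507 peaks in all, the gene that held the summit was not the one with the nearest end.

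Gene lists of the ERK and ETS pathways and of lung and epithelial biology were then compared with the share of 2.41% over all protein-coding genes. Among 26 genes of ERK feedback and ETS targets, 5 (19.2%) were nearest to or held a peak of the group: DUSP6, an ERK phosphatase (fold 106, at 38.3 kb), SPRY4, a feedback inhibitor of receptor tyrosine kinases (171 and 127, at 67.0 and 78.0 kb), JUN, an AP-1 subunit (235 and 131, at 15.8 and 77.3 kb), CCND1, cyclin D1 (125, at 18.9 kb) and MYC. Each of these summits was over 10 kb from the nearer end of its gene. The list was drawn up with earlier results of these data known, so the count describes it and does not support it.

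The other lists held fewer. Of 45 WNT ligands, receptors and regulators, 3 (6.67%) were met: FZD9, a Frizzled receptor (fold 225, at 15.3 kb), WNT5B, a ligand (129, at 16.6 kb) and TCF7L2, a nuclear effector (113, at 47.3 kb). Of 31 genes of epithelial junctions, keratins and basement membrane, 2 (6.45%) were met, LAMB3, a laminin-332 chain that holds the summit (fold 109), and ESRP1, an epithelial splicing regulator (106, at 35.4 kb).

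The 21 lung epithelial genes and the 43 DNA replication genes had 0. At the share of 2.41% over all protein-coding genes, lists of this size would hold few or none, so these zeros are not a result about the lists. These counts concern the peaks of a fold of 100 or more alone and say nothing of weaker peaks at the same genes.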

How the data were processed

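The data were the peaks of 1 anti-Flag ChIP library against 1 input. The authors deposited, for each peak, an interval, a summit, the fold enrichment (a ratio to control), −log10 p-value and −log10 q-value, and a display score that was not used here. The submitters' processing notes name Bowtie2 2.4.1, SAMtools, MACS2 2.2.7.1, deepTools 3.5.0 and hg38, with no order or parameters. The input's own signal was not analysed here. A floor on the control level, and background that differs between places, affect which peaks reach a given fold.

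The fragment pileup and the control level under each summit were solved from the fold, taken as pileup plus 1 over control plus 1, and the Poisson −log10 p. Solved pileups deviated by no more than 0.00914 from whole numbers. Summits were compared with 59675 RefSeq genes (GRCh38.p14), 20033 of them protein-coding, by outer gene ends, and with RefSeq promoter windows, which give strand and sequence for part of the genes. The functions were tested on simulated data.

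No test was possible with 1 library. Results for some pairs and gene lists are not reported here. Members and gene lists were chosen with earlier results of these data known. Named genes are those nearest to or holding the peaks of rank 11 to 30, those holding 2 or more summits, those with an end within 1 kb of a summit, those at the 3 widest, narrowest and farthest peaks and at the threshold, and list genes; genes of pairs, genes nearest to 3 or more peaks, the FRG1 copies, noncoding genes at gene-end peaks and 4 of the 5 printed sequences were chosen after their values were seen. Alternatives varied the fold threshold, the ranking, the windows and the gene types. Scripts ran in Python 3.11.15 with scipy 1.17.1, pandas 2.3.3 and numpy 2.4.6, and figures were drawn with matplotlib 3.10.9.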

Additional observations from a re-analysis of the deposited data

How the results depend on the processing

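Of 47 alternatives, 19 left a value within its 95% interval or, for the number of peaks, within 1.5 times, and 28 moved it. A fold of 80 or more gave 1025 peaks and one of 150 or more 99. The share inside a gene was 63.5% for the same number of peaks with the highest −log10 q, 63.5% with the highest pileup and 45.0% for protein-coding genes only. The share within 1 kb of a gene end was 15.3% at a fold of 80, 5.05% at 150, 18.0% by −log10 q, 24.3% by pileup, 24.9% in a 3 kb window, 17.4% from the peak interval, 7.50% for protein-coding genes and 9.03% for 5′ ends outside chromosome 8. The median distance from a protein-coding gene end was 34.2 kb at a fold of 150, 19.8 kb by −log10 q and 15.7 kb by pileup, and 10.4 kb to genes of every type. Median width was 917 bp at a fold of 80 and 993 bp by pileup, and 68.7% of summits were in the central 20% of the interval at 150. Another peak of the group lay within 50 kb of 0% at a fold of 150, 10.9% by −log10 q and 15.0% by pileup, within 10 kb of 1.97% and within 100 kb of 15.2%. The median number of other peaks was 1 within 10 kb, and 2 within 50 kb when only folds over 10 counted. With 100 bases on each side, 100% of 8 summits held an ETS motif. Narrower or wider windows move shares by construction, and the cause of the moves by ranking and by threshold was not tested. No paired analysis was possible because no result comes from a test and there was 1 library. The single library limits all values: the spread between immunoprecipitates is unknown, and intervals cover counting error only.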
